A study of Homo sapiens with 6 samples.

Results

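Antiviral effectors are proteins that block single steps of a viral life cycle and whose genes are switched on by interferon. The data described here are those of 6 such genes, MX1, MX2, RSAD2 (viperin), CMPK2, BST2 (tetherin) and IFITM1, of 22411 genes with a single symbol. Members were chosen by name: each is the transcript cluster, the array's unit for a gene, whose only platform symbol is that name, and each of the 6 names had 1 cluster. The cells were HaCaT, a spontaneously immortalised line of human keratinocytes, the main cells of the epidermis. In the irradiated group 3 cultures received a single X-ray dose of 20 Gy at 1.15 Gy per min, and in the mock group 3 cultures received 0 Gy, all being collected after 48 h. Total RNA of each culture was hybridised to 1 array that measures coding and non-coding transcripts. By their labels the cultures are biological replicates numbered 1 to 3 in both groups. Separate growth is not stated, so p-values measure only the spread between these cultures or, in paired tests, between their pair differences. All cultures come from 1 cell line. The design asks which transcripts differ between irradiated and mock-irradiated keratinocytes.

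Type I and type III interferons bind their receptors, activate JAK kinases, and send a complex of transcription factors to the interferon-stimulated response element in gene promoters. RNA and DNA sensors can also reach many of the same genes directly through IRF3 and related factors. In skin, keratinocytes are among the first cells that viruses meet, and these effectors form part of their inborn defence. MX1 and MX2 are dynamin-like GTPases that trap viral ribonucleoproteins or capsids. Viperin makes a chain-terminating analogue of CTP, and CMPK2, encoded beside it, is a mitochondrial nucleoside monophosphate kinase. Tetherin holds budding virions at the cell surface, and IFITM1 hinders the fusion of viral and cell membranes.

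Values are log2 signals as deposited, and array medians ran from 4.53 to 4.66. A gene was called above background when its mean over the 6 arrays exceeded 6.01, the mean of the brightest of 23 background control sets, which 9324 genes did. On single arrays the brightest control set lay between 5.52 and 7.25. The arrays with replicate number 3 stood apart on the first principal component (48.6% of variance), and irradiated from mock arrays on the third (16.1%). KRT1, a keratin of differentiating cells, had 5.96, 5.53 and 16.52 in irradiated replicates 1, 2 and 3, against 6.36, 6.36 and 16.88 in mock replicates 1, 2 and 3. Deviations from the group means correlated at 0.52 to 0.70 between cultures of the same number. These cultures were compared as pairs, a choice made with earlier results of these data known.

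All 6 genes had a higher signal in irradiated than in mock cultures in each of the 3 pairs, as did 25.4% of all 22411 genes. In 4 of the 6 every irradiated array lay above every mock array, against 10.0% of all genes. RSAD2 rose 3.34-fold, and it was the 1 of the 3 genes above background (RSAD2, MX1 and IFITM1) that passed the paired limma test (adjusted p = 0.0160). In that test 1.30% of the 9324 genes above background were called higher (121) and 3.71% lower (346), 5.01% in all. That split moved with scaling, to 119 higher and 84 lower after quantile normalization and 180 higher and 89 lower after centring each array on the genes above background, and RSAD2 passed under both. MX1 (difference 0.92, adjusted p = 0.0610) and IFITM1 (0.34, adjusted p = 0.0704) missed the threshold of 0.05. MX2, CMPK2 and BST2 lay below the background limit on all 6 arrays and did not enter the test. Without the pairing, limma called 0 of the 6 genes among all 67528 clusters (adjusted p from 0.607 for RSAD2 to 0.892 for IFITM1), where 0% of clusters passed and 4822 had an unadjusted p under 0.05. RSAD2, MX2, CMPK2 and BST2 were among those, with unadjusted p from 0.00407 to 0.0186. With the pairing, all 6 had an unadjusted p under 0.05 over all clusters, as did 10237 clusters, and 0 passed (adjusted p from 0.210 to 0.291, 0% of clusters called).

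**Figure D1:**
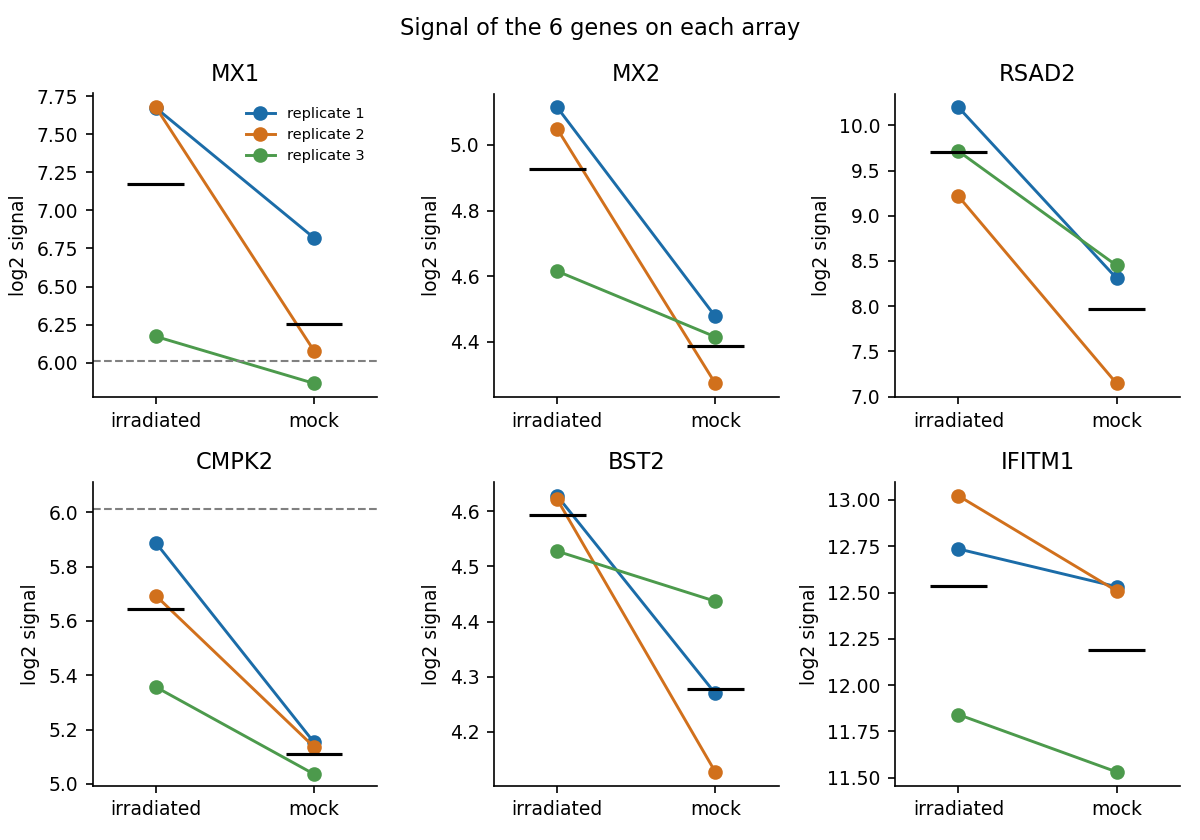
Log2 signal of each gene (vertical axes, not starting at 0) on the irradiated and the mock arrays, with a line joining cultures of the same number, a black bar for the group mean (n = 3) and a dashed line at the background limit of 6.01 where it falls within range. All lines run down from irradiated to mock, and the groups overlap for MX1 and IFITM1 only.

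Viperin's gene showed the greatest difference of the 6. RSAD2 had a log2 signal of 10.20, 9.22 and 9.71 in irradiated replicates 1, 2 and 3, against 8.31, 7.15 and 8.45 in mock replicates 1, 2 and 3. Every irradiated array lay above every mock array, and replicate 2 was the lowest in both groups. The means were 9.71 ± 0.49 in irradiated and 7.97 ± 0.72 in mock cultures (SD, n = 3 each), a difference of 1.74 (SE 0.15, adjusted p = 0.0160). Within pairs 1, 2 and 3 the irradiated culture was 3.71-fold, 4.20-fold and 2.40-fold higher. In bulk RNA, more cells carrying a transcript and more of it per cell cannot be told apart. RSAD2 ranked 6th among the 9324 genes above background by size of increase. The call held without each pair in turn (differences 1.58 to 1.98) and was lost over all 22411 genes, dim ones included (adjusted p = 0.0759, 0% called), where its difference had a 95% interval of 1.33 to 2.15.

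CMPK2, RSAD2's neighbour on chromosome 2, is read in the opposite direction, and the annotated genes overlap at their starts. CMPK2 had 5.89, 5.69 and 5.36 in irradiated replicates 1, 2 and 3, against 5.15, 5.14 and 5.04 in mock replicates 1, 2 and 3. The groups did not overlap, but every value lay below the background limit. For that reason the difference of 0.54 (SE 0.090 with pairing, over genes with a single symbol) is one of dim signals, and no fold is given for CMPK2, MX2 or BST2. The sources used here do not say which part of the locus the CMPK2 and RSAD2 probes cover.

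The RefSeq promoter windows, 250 bases before to 50 after an annotated start, are shown for RSAD2 because they differ in the letters they hold. Capitals mark matches to GAAANNGAAA, the core of the interferon-stimulated response element, and to GAAANGAAA, a form with 1 base less that was added after the windows had been seen, on either strand.
RSAD2 window 1, GRCh38.p14 chr2:6865635-6865934, plus strand: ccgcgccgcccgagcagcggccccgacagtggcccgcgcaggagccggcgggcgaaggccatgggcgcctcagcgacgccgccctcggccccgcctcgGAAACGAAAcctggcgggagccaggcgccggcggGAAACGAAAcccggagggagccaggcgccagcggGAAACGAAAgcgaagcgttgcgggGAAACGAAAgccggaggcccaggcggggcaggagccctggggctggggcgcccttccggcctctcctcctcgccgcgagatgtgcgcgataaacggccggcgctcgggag
RSAD2 window 2, GRCh38.p14 chr2:6877527-6877826, plus strand: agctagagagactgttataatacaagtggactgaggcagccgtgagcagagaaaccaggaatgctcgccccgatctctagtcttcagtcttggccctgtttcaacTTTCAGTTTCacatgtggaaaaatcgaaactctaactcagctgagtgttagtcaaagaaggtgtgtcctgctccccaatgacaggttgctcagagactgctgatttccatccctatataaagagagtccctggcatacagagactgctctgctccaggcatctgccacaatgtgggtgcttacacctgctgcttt
RSAD2 window 1, at the upstream start, held 4 matches to the shorter form and 0 to the core, between positions -152 and -52 from the start. RSAD2 window 2, at the downstream start, held 1 match to the core at -145 to -136. CMPK2 window 2 shares 165 bases with RSAD2 window 1 and so carries 2 of the same 4 matches, while the other 2 CMPK2 windows held neither form.

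The MX genes are adjacent on chromosome 21. MX1 had a log2 signal of 7.67, 7.68 and 6.17 in irradiated replicates 1, 2 and 3, against 6.82, 6.08 and 5.86 in mock replicates 1, 2 and 3. Irradiated replicate 3 lay below mock replicate 1, so the groups overlapped, and mock replicate 3 lay below the background limit. The means were 7.17 ± 0.87 in irradiated and 6.25 ± 0.50 in mock cultures (SD, n = 3 each), and the paired differences of 0.85, 1.60 and 0.31 had an SD of 0.65. Without pair 3 MX1 passed the paired limma test (difference 1.23, adjusted p = 0.0374), and without pair 2 its difference was 0.58 (adjusted p = 0.102). MX2 had 5.11, 5.05 and 4.62 in irradiated replicates 1, 2 and 3, against 4.48, 4.27 and 4.42 in mock replicates 1, 2 and 3. These groups did not overlap, and at this signal a difference of 0.54 (SE 0.12 with pairing) stands for probes dimmer than the background limit. MX1 and MX2 had the same order of pairs, with pair 2 the widest and pair 3 the narrowest, as did RSAD2 and BST2.

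MX1 has 3 annotated starts, and window 1 is shown because it is the only one that holds both forms of the motif, marked in capitals as before.
MX1 window 1, GRCh38.p14 chr21:41420308-41420607, plus strand: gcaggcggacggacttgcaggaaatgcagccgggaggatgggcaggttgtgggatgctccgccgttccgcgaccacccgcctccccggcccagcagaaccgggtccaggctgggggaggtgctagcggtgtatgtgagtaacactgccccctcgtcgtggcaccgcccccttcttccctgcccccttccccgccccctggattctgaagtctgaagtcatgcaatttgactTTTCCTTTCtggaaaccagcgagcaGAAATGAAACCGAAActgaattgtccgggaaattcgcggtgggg
The core lies at positions 12 to 21 after the start and overlaps a match to the shorter form at 7 to 15. A further match to the shorter form lies at -19 to -11 on the opposite strand. MX1 window 2 held 2 matches to the shorter form, and window 3 held 1 to the core.

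The membrane proteins showed the smallest differences. IFITM1 had 12.74, 13.02 and 11.84 in irradiated replicates 1, 2 and 3, against 12.53, 12.51 and 11.53 in mock replicates 1, 2 and 3. Replicate 3 was the lowest of both groups, by more than the irradiated and mock cultures of any pair differed, and the groups overlapped. The means were 12.53 ± 0.62 in irradiated and 12.19 ± 0.57 in mock cultures (SD, n = 3 each), a 1.27-fold difference. The pair differences of 0.20, 0.51 and 0.31 had an SD of 0.16. The difference of group means, by contrast, depended on single cultures: it was 0.013 when mock replicate 3 was left out, 0.097 when irradiated replicate 2 was, 0.24 when irradiated replicate 1 was, 0.51 and 0.50 when mock replicates 1 and 2 were, and 0.69 when irradiated replicate 3 was. BST2 had 4.63, 4.62 and 4.53 in irradiated replicates 1, 2 and 3, against 4.27, 4.13 and 4.44 in mock replicates 1, 2 and 3. The irradiated arrays lay within a span narrower than that of the mock arrays and did not overlap with them, but all were dim, and the difference of 0.31 had an SE of 0.091 with pairing.

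The windows of these 2 genes, marked in the same way, are shown because each holds 2 matches to the core.
BST2 window 1, GRCh38.p14 chr19:17405581-17405880, minus strand: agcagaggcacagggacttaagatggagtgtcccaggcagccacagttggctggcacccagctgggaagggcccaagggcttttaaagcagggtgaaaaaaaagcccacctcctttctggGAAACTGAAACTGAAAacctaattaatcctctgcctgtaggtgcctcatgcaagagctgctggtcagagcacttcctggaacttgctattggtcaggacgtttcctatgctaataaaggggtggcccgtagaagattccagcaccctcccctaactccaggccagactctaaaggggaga
IFITM1 window 1, GRCh38.p14 chr11:313790-314089, plus strand: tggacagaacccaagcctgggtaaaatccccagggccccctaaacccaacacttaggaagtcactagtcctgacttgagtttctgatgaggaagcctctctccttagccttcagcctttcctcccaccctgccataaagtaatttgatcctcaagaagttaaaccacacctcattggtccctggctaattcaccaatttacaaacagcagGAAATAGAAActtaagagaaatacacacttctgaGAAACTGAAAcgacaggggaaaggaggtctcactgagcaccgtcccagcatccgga
In BST2 the matches overlap each other, at -130 to -121 and -124 to -115. In IFITM1 they lie apart, at -40 to -31 and at -6 to 4, across the start.

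**Figure D2:**
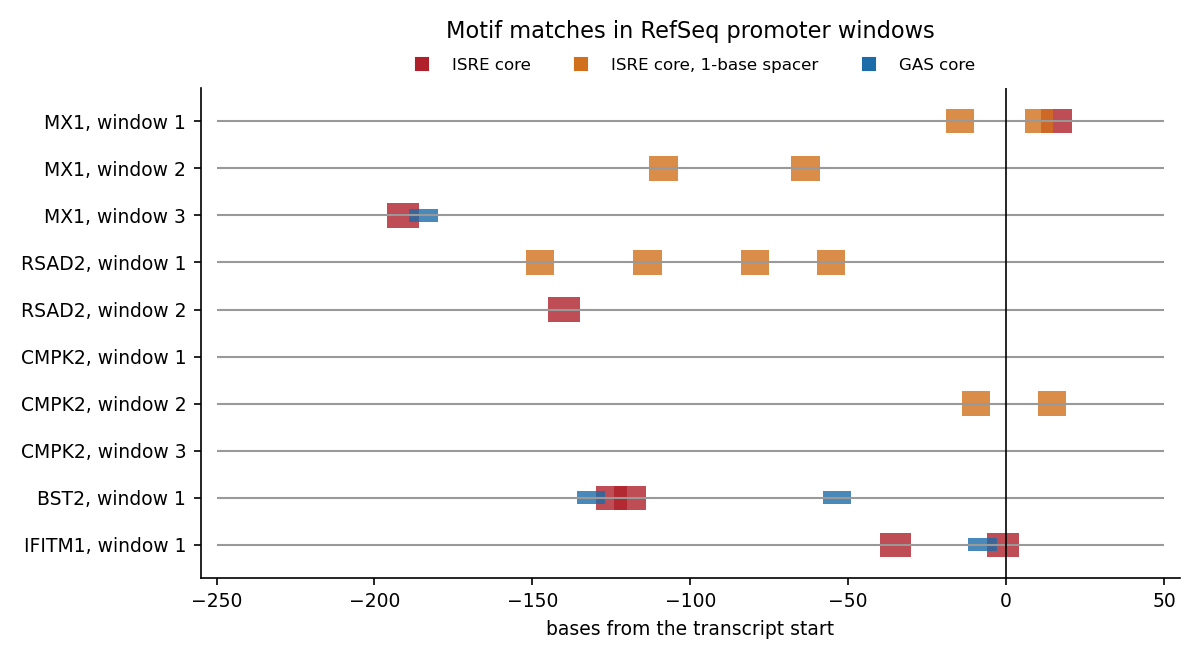
Matches to the core motif (red), to its form with 1 base less (orange) and to the gamma-activated site core (blue) along the 10 promoter windows of 5 genes, by distance in bases from the annotated start (black line). RSAD2 window 1 holds 4 orange matches, and BST2 and IFITM1 hold 2 red ones each.

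Among the 35116 RefSeq windows of 300 bases in the table, 3.57% held the core and 3.12% the shorter form. The core stood in at least 1 window of 4.38% of the 27305 genes in that table. It was present in a window of MX1, RSAD2, BST2 and IFITM1, and absent from those of CMPK2. The gamma-activated site core TTCNNNGAA stood in 7.66% of all windows and in MX1 window 3, BST2 and IFITM1, where a match to it overlapped 1 to the interferon-stimulated core in each case. These are letters in a window, and no binding was measured.

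The size of the difference varied between pairs. The median difference over the 6 genes was 0.69, 0.67 and 0.31 in pairs 1, 2 and 3, and 0.54 over the means. Over the 3 genes above background alone it was 0.85, 1.60 and 0.31, and 0.92 over the means. RSAD2 had the widest difference of the 6 in every pair, 1.04, 0.47 and 0.94 above the next gene. Pair 3 was the narrowest for MX1, MX2, RSAD2, CMPK2 and BST2, and pair 1 for IFITM1. Pair 3 is also the pair in which KRT1 and KRT10 were bright, KRT10 lying at 13.16 in the irradiated and 13.43 in the mock culture, against 7.72 to 8.03 in the other irradiated and 8.11 to 8.44 in the other mock cultures. Of the 6 measured genes in the list of differentiating keratinocytes, KRT1, KRT10, IVL, SPRR1B and DSC1 were highest in replicate 3 of both groups, DSC1 remaining below background. FLG, which encodes filaggrin, was highest in replicate 1, with 10.60, 8.79 and 8.73 in irradiated replicates 1, 2 and 3, against 10.32, 8.08 and 8.23 in mock replicates 1, 2 and 3. The part of this in the narrower differences of pair 3 was not tested.

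**Figure D3:**
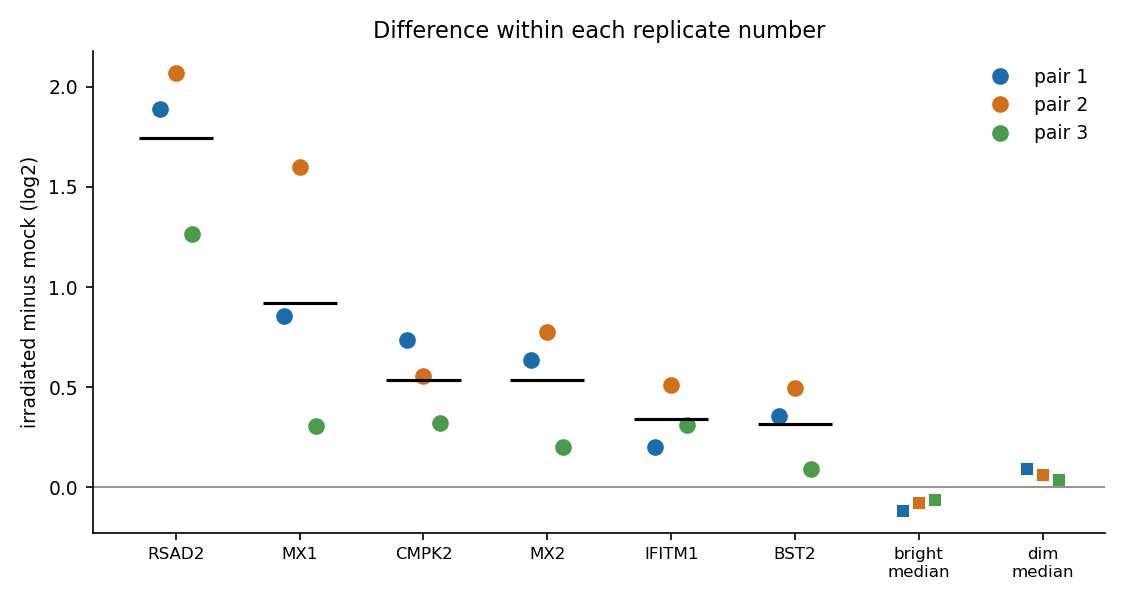
Irradiated minus mock log2 signal within each replicate number (coloured points) and its mean (black bars) for each gene. Squares give the median over the 9324 genes above background (bright) and the 13087 at or below it (dim). All 18 points of the 6 genes lie above 0, and the squares lie between -0.12 and 0.092.

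Counts over the 6 genes need to be read against all genes, since in the deposited values dim signals as a whole were higher in irradiated cultures. Array medians were 4.64, 4.62 and 4.66 in irradiated replicates 1, 2 and 3, against 4.53, 4.54 and 4.63 in mock replicates 1, 2 and 3. The medians and shares that follow hold for this scale only. The median difference was -0.089 over genes above background and 0.066 over genes at or below it. Of the genes above background, 9.94% were higher in all 3 pairs, and 1.54% had every irradiated array above every mock array, which RSAD2 did and MX1 and IFITM1 did not. Of the genes at or below background, 36.4% were higher in all 3 pairs and 16.1% had groups that did not overlap in that direction, as MX2, CMPK2 and BST2 did. Ordered by difference among all 22411 genes with a single symbol, RSAD2 ranked 7th, MX1 37th, CMPK2 154th, MX2 155th, IFITM1 599th and BST2 730th.

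**Figure D4:**
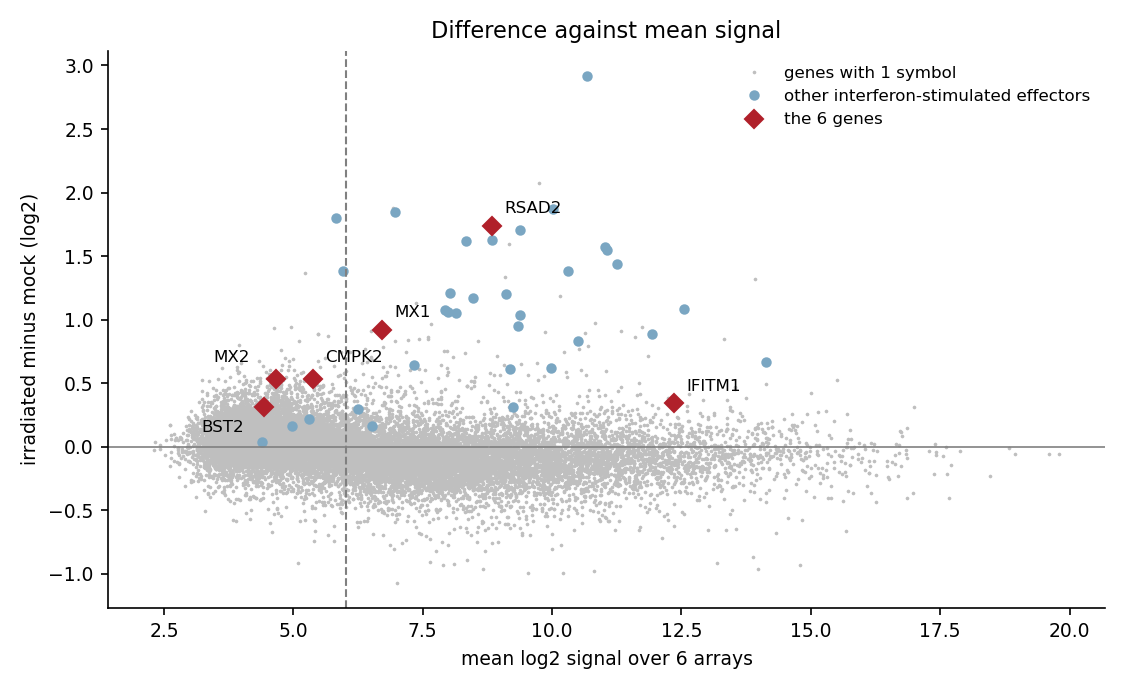
Irradiated minus mock log2 signal against mean log2 signal for 22411 genes (grey), 33 other interferon-stimulated effectors (blue) and the 6 genes (red), with the background limit dashed at 6.01. RSAD2 lies at 1.74 beside other stimulated effectors, while BST2 (0.31) lies inside the cloud of dim genes.

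Other effectors of the interferon response moved in the same direction. Of 35 fixed in a list 33 were measured, all 33 had a higher mean after irradiation (31 in every pair), and the median difference was 1.07. Of the 28 above background, 23 rose and 0 fell in the paired limma test, in which 1.30% of all genes were called higher. DDX60L, a helicase-like protein, rose by 1.06 (adjusted p = 0.0160), SAMD9, which restricts poxviruses, by 1.09 (0.0160), IFI44 by 1.71 (0.0160) and DDX60 by 1.44 (0.0160). Their adjusted p-value equals that of RSAD2 because the adjustment gives neighbouring ranks the same value. As for the members, pair 3 had the smallest median (0.64, against 0.97 in pair 1 and 1.44 in pair 2). Single genes differed in this. DDX60L (0.83) and IFI44 (1.31) were narrowest in pair 3. SAMD9 was widest there, with 0.93, 1.01 and 1.32 in pairs 1, 2 and 3, and DDX60 was narrowest in pair 1, with 1.03, 1.65 and 1.63. The list was compiled with earlier results of these data known and is no independent evidence of direction.

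Genes that make or carry the interferon signal were examined next. All 10 interferon genes measured lay below background on average (highest signal 6.63, IFNE in irradiated replicate 2), and did not enter the paired test. The list went both ways, with 6 of 10 higher (3 in every pair) and a median difference of 0.062. IFNL3 (0.23) and IFNL1 (0.20), which encode type III interferons, were among the higher, and IFNB1 (-0.057) and IFNE (-0.12) among the lower. For comparison, 9384 of the 13087 genes at or below background were higher and 36.4% were higher in every pair, with a median difference of 0.066. Of 15 receptor and transducer genes, 11 were measured and 9 lay above background. In that list 0 passed the paired limma test and 2 (JAK1 and IL10RB) had an unadjusted p under 0.05, with a median difference of -0.051. JAK1, a kinase shared by these receptors, lay at -0.28 (adjusted p = 0.0699), and IL10RB, a chain of the type III receptor, at -0.38 (adjusted p = 0.0771). IRF7, a transcription factor that is itself interferon-stimulated, had a difference of 0.33. Its mean signal of 5.73 lay below the background limit, so it did not enter the test. The other 4 genes of that list were not analysed here. Among negative regulators, 1 of 4 above background passed: USP18, the protease that removes ISG15 and restrains the receptor, rose by 0.97 (adjusted p = 0.0209). Its signal was 8.14 ± 0.54 in irradiated and 7.18 ± 0.24 in mock cultures (SD, n = 3 each). The phosphatase gene PTPN6 lay at -0.22 (adjusted p = 0.105).

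**Figure D5:**
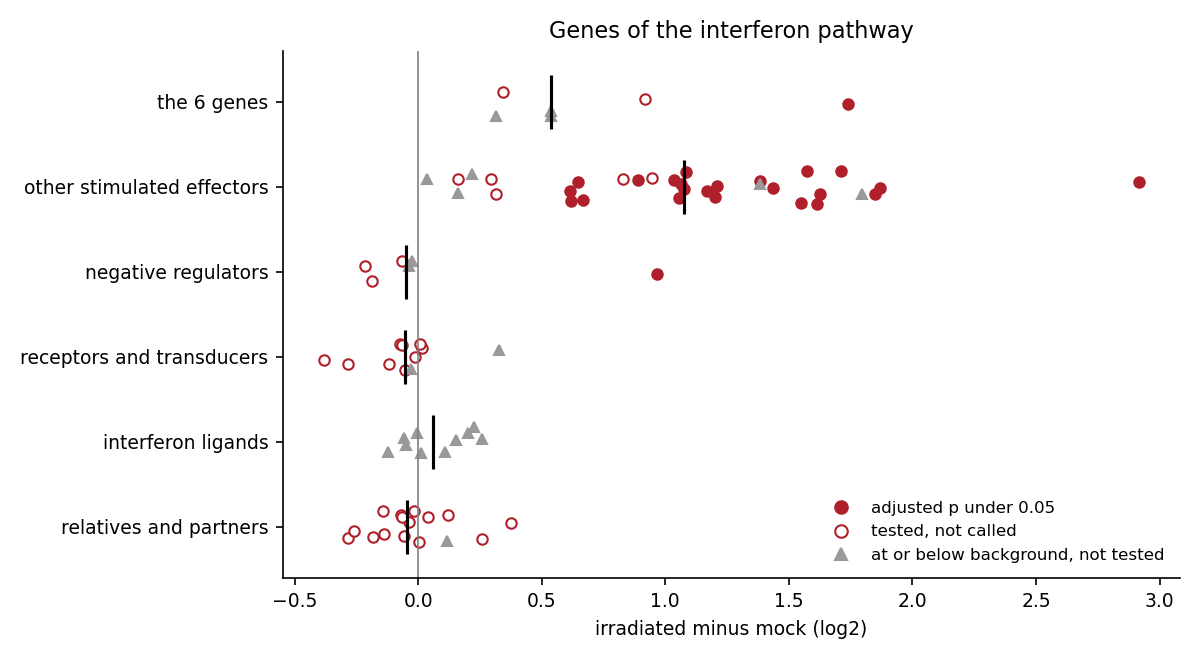
Irradiated minus mock log2 signal of each measured gene of 6 gene lists (1 point per gene, spread vertically at random for legibility), with the list median as a black bar. Filled circles passed the paired limma test, open circles did not, and triangles lay at or below background. The effectors reach 2.92, and the medians of receptors, ligands, negative regulators and relatives lie between -0.051 and 0.062.

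Relatives and molecular partners of the 6 genes were measured in 16 of 17 cases, and 15 lay above background. In the paired limma test 0 of these 15 passed (5 at an unadjusted p under 0.05), and the median difference was -0.047. IFITM3, next to IFITM1 on chromosome 11 and similar to it in sequence, lay at 0.26 (adjusted p = 0.0984), with 16.07, 16.27 and 15.16 in irradiated replicates 1, 2 and 3, against 15.86, 15.95 and 14.91 in mock replicates 1, 2 and 3. IFITM2, the other neighbour, lay at 0.12 (adjusted p = 0.374). Since these paralogs are much alike, their clusters may share signal, and the IFITM1 value is uncertain to that degree. DNM2, a dynamin of endocytosis related to the MX proteins, lay at -0.26 (adjusted p = 0.0795), and CMPK1, the cytosolic relative of CMPK2, at -0.14 (adjusted p = 0.265).

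The 8 genes whose signal over the 6 arrays was most like the mean centred profile of RSAD2, MX1 and IFITM1 were sought among 9321 genes above background. They were RND3 (r = 0.992), HERC6 (0.992), SOX9 (0.988), IFIT2 (0.984), IFIT1 (0.976), DUSP14 (0.974), RIGI (0.969) and the cluster named MIR4323 (0.969). Of these, HERC6, IFIT2, IFIT1 and RIGI stand in the list of other effectors, SOX9 is a transcription factor and DUSP14 a phosphatase. These are Pearson correlations over 6 arrays, which share their cultures, and they describe likeness only. With single members of that profile the 8 genes correlated less, at 0.863 to 0.953 with MX1, 0.735 to 0.892 with RSAD2 and 0.517 to 0.701 with IFITM1. Of the dim members outside it, MX2 was closer than the profile to SOX9 (0.993) and MIR4323 (0.995), and CMPK2 to MIR4323 (0.983). The remaining correlations of the 8 genes with MX2, CMPK2 and BST2 were lower than with the profile. Likeness within the group was uneven: MX2 and CMPK2 correlated at 0.965, MX1 and MX2 at 0.903, RSAD2 and CMPK2 at 0.773, and RSAD2 and IFITM1 at 0.092.

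Markers of keratinocytes were bright, 7 of 7 measured lying above background, of which DSP (-0.42, adjusted p = 0.0360) and KRT15 (-0.75, adjusted p = 0.0434) fell. The summed signal of the list lay between 18.29 and 19.36 (log2) on irradiated and 18.56 and 19.40 on mock arrays. Of the differentiating keratinocyte list, 5 of 6 lay above background. FLG rose by 0.50 (adjusted p = 0.0444), while KRT1 (-0.53, adjusted p = 0.0470) and KRT10 (-0.36, adjusted p = 0.0470) fell. The falls of DSP, KRT15, KRT1 and KRT10 are calls on the deposited scale. There 346 genes were called lower, against 84 after quantile normalization and 89 after centring. SPRR1B (0.48, adjusted p = 0.0547) and IVL (0.098, adjusted p = 0.790) did not pass. KRT1 was bright in replicate 3 only, where its pair difference was -0.36. In irradiated replicates 1 and 2 it lay at 5.96 and 5.53, below the background limit, against 6.36 in both mock cultures. The KRT1 differences of pairs 1 and 2 (-0.40 and -0.83) are therefore ones of dim signals. The differentiating keratinocyte list summed to 9.83 to 16.75 on irradiated and 9.65 to 17.07 on mock arrays, and its part in the results was not tested. Of 5 leukocyte markers 1 lay above background: CD68, a lysosomal protein found in many cells, which rose by 0.44 (adjusted p = 0.0334), while the defining PTPRC lay between 3.81 and 4.18 on the 6 arrays. The leukocyte list summed to 8.23 to 8.66 on irradiated and 7.96 to 8.30 on mock arrays, and its part in the results was not tested. Plasmacytoid dendritic cells, which make much interferon and carry tetherin, had 1 of 4 markers above background (TCF4, with a difference of 0.027), and the defining CLEC4C lay between 3.69 and 3.98. Their sum was 7.07 to 7.26 on irradiated and 6.94 to 7.19 on mock arrays. Of the measured markers 0 of 5 for fibroblasts, 0 of 4 for endothelial cells and 1 of 4 for melanocytes lay above background. The fibroblast sum was 6.74 to 6.83 on irradiated and 6.62 to 6.80 on mock arrays, the endothelial sum 6.44 to 6.82 on irradiated and 6.21 to 6.46 on mock arrays, and the melanocyte sum 6.90 to 7.41 on irradiated and 6.78 to 7.27 on mock arrays.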

How the data were processed

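Each of 6 HaCaT cultures was measured on 1 array, grouped and numbered by its title. The gene-level table deposited by the authors holds log2 signals made with RMA, per the submitters' processing notes, and the exon-level table log2 signals made with SST-RMA, per the file headers. All 2995 features held in both have identical log2 values (largest difference 0), so the gene-level values may also come from SST-RMA, which can scale fold changes. For neither table are versions, library files or a build given in the sources used here. The number of arrays limits the precision.

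Symbols came from the platform annotation (23781 of 67528 clusters with 1 symbol) and brought up to date by gene number, symbol or synonym with RefSeq's GRCh38.p14 table, the brightest cluster standing for a symbol, which left 22411 genes. Exon-level features were not paired with genes. Differences, irradiated minus mock, were fitted with limma 3.58.1 in R 4.3.3 (lmFit, then eBayes with a mean-variance trend; two-sided p adjusted by Benjamini-Hochberg over every feature fitted; threshold 0.05), once without a block over all clusters and once with the replicate number as a block over the 9324 genes above background. The numbers come from the titles, and deviations correlated at 0.523 to 0.705 within numbers, so the numbers were taken to pair the cultures. Between numbers the correlations were -0.555 to 0.0721. Because deviations from a group mean cancel out within the group, positive values within numbers draw those between numbers down. The values between numbers are therefore no separate support for the pairing. The members, lists and tests were chosen with earlier results of these data known. Named genes were the members, from each pathway list up to 4 genes past the threshold with the smallest p or otherwise the 2 with the smallest p, and the 8 genes most like the members. Other genes named (PTPN6, IRF7, IFNE, IFNB1, IFITM2, CMPK1, keratins and cell type markers) were chosen after their values were seen. The fit was tested on simulated data. Promoter windows came from RefSeq (GRCh38.p14, windows for 5 of the 6 members), searched on both strands. Alternatives were the block, scaling, variance trend, signal filter and leaving out arrays or pairs.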

Additional observations from a re-analysis of the deposited data

How the results depend on the processing

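The direction of all 6 members was the same under every alternative run. Of the members above background, 1 passed in the paired fit, 1 after quantile normalization, after centring, without a variance trend and over genes above the median signal. The count was 0 with no replicate block, 0 with no filter on dim genes, and 1 to 2 when a pair was left out. Over the 11205 genes above the median signal (limit 5.35, 375 called), CMPK2 also entered the paired limma fit and passed (adjusted p = 0.0423). Its values are the same dim ones, below the background limit on all 6 arrays. Genes called in all numbered 467 (121 higher, 346 lower), 203 after quantile normalization (119 higher, 84 lower), 269 after centring (180 higher, 89 lower), 251, 66 and 140 without pair 1, 2 and 3, and 0 with no replicate block or no filter. In the unpaired fit 0 members passed under each alternative, the replicate block included. The median difference of the members was 0.54, and 0.92 over the 3 above background. Of the 56 pathway genes above background 24 rose, 0 with no replicate block and 16 to 24 without a pair, while 0 fell, and 0 to 1 without a pair, the 1 being IL10RB without pair 1. The causes were not tested. Signal over background limits what can be said of MX2, CMPK2 and BST2.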
